A study of Mus musculus with 2 samples.

Results

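The miR-135 family comprises the mouse microRNA (miRNA) genes Mir135a-1, Mir135a-2 and Mir135b, which were picked by symbol, with no threshold on their counts, and make up 3 of the 1973 miRNA loci with a count. MicroRNA sequencing had been performed on midbrain of mouse embryos of strain B6NCrl at day 14.5, with RNA below 30 nt as the stated size range. The series holds 1 group of 2 biological replicates, with no treatment and no genetic change named in the labels, and therefore no contrast between conditions. Per the labels each replicate is the midbrain of a single pup, collected on its own day. Yet the sex is entered as male and female pooled, and the pup, pregnancy and donor identifiers are shared. If the replicates were not separate animals, the SDs below measure technical spread.

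A miRNA gene is transcribed as a hairpin whose arms, named 5p and 3p, can each give a mature RNA, and bases 2 to 8 of that RNA, the seed, guide it to matching sites in the 3′ untranslated regions (3′ UTRs) of messenger RNAs. In the mouse midbrain the family is known for Mir135a-2, which has been studied together with Lmx1b, a LIM-homeodomain factor of floor plate progenitors, and with Wnt1, a signal that maintains the progenitors of dopamine neurons. Midbrain tissue at this stage also holds many other progenitors, neurons, vessels and blood, so that a level in whole tissue does not tell fewer cells from less RNA in each cell.

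The mature sequences show why the members cannot be counted alike, and are given 5′ to 3′ with the seed in capitals, from RefSeq on build GRCm38.p6. The 5p arm of Mir135a-1 and the 5p arm of Mir135a-2 are the same RNA, while the 3p arms differ.
miR-135a-5p (Mir135a-1 and Mir135a-2): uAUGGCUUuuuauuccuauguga
miR-135a-1-3p: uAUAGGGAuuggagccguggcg
miR-135a-2-3p: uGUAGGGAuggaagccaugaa
miR-135b-3p: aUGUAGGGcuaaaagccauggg
The 3p seeds all differ from each other, and no mature mouse miRNA from outside the family in the RefSeq table has any of the 4 seeds shown. The remaining mature product of the family is miR-135b-5p.

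The hairpins are printed with the longest exact stretch that each shares with another member in capitals, because this decides which reads can be placed.
Mir135a-1: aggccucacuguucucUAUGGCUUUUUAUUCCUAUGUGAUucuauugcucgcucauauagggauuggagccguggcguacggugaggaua
Mir135a-2: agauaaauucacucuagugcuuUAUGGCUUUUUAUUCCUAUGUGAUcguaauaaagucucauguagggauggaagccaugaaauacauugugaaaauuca
Mir135b: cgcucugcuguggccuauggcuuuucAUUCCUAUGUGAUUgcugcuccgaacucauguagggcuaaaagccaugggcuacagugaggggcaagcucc
Mir135a-1 and Mir135a-2 share 24 nt, which hold the whole 23 nt of miR-135a-5p. A read that lies inside this stretch matches both hairpins equally, and the deposited tables tally reads with several matches apart from the genes. Mir135b shares at most 14 nt with Mir135a-1 and 13 nt with Mir135a-2. Its hairpin also holds the seed letters AUGGCUU, and its closest window to miR-135a-5p differs by the single substitution U11C, counted from 1 at the 5′ end of the mature RNA, with the miR-135a-5p base first. The mismatches that the aligner allowed are not given, so whether reads were placed across this difference was not tested. No stretch of 20 nt of the Mir135b hairpin occurs in any other annotated miRNA hairpin. Outside that arm the hairpins diverge: over their whole lengths the aligned identity was 67.0% for Mir135a-1 and Mir135a-2, 67.6% for Mir135a-1 and Mir135b, and 63.3% for Mir135a-2 and Mir135b. The GC content was 53.6% in Mir135b, 46.7% in Mir135a-1 and 33.0% in Mir135a-2, and the predicted folding energies were -48.7, -43.5 and -34.5 kcal/mol.

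The 3 genes lie on different chromosomes, all inside introns of longer transcripts on their own strand, in mm10 coordinates with the GENCODE M21 annotation. Mir135b (ENSMUSG00000065435) is on chromosome 1 from 132198088 to 132198184, plus strand, in an intron of the protein-coding gene Lemd1. Mir135a-1 (ENSMUSG00000065407) is on chromosome 9 from 106154124 to 106154213, plus strand. It sits in an intron of D030055H07Rik, a noncoding gene, and overlaps the 3′ UTR of Glyctk, the glycerate kinase gene, on the opposite strand. Mir135a-2 (ENSMUSG00000065524) is on chromosome 10 from 92072086 to 92072185, minus strand, in an intron of the long noncoding gene Rmst. No read was found on the opposite strand of any of the 3 loci in either library, so the overlap of Mir135a-1 with Glyctk added no antisense reads to the tables.

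By reads counted at each locus, Mir135b was among the abundant miRNA loci of the E14.5 midbrain, and the other members stood far below it. That order holds for counted reads and not for mature miRNAs, since reads that fit both miR-135a loci would be in neither count. Levels are CPM, the reads of a locus scaled to a total of 1000000 sense reads at miRNA loci. The libraries held 7302633 such reads in replicate 1 and 3966727 in replicate 2, so that 1 read equalled 0.137 and 0.252 CPM. Mir135b held 114499 reads in replicate 1 and 69717 in replicate 2. Its level was thus 15679 CPM in replicate 1, against 17575 CPM in replicate 2, with 95% intervals (exact Clopper-Pearson) of 15589 to 15770 CPM and 17446 to 17705 CPM, and a mean of 16627 ± 1341 CPM (SD, n = 2). The intervals do not meet, but they cover the sampling of reads only and no variation between animals or libraries. PCR can also copy 1 molecule into several reads, which the intervals do not allow for.

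Mir135a-1 had 3186 reads in replicate 1 and 1821 in replicate 2, or 436 CPM (95% interval 421 to 452) and 459 CPM (438 to 481), a mean of 448 ± 16.1 CPM (SD, n = 2). Mir135a-2, the member inside Rmst, had 2659 and 1739 reads, or 364 CPM (350 to 378) in replicate 1 and 438 CPM (418 to 459) in replicate 2, a mean of 401 ± 52.5 CPM (SD, n = 2). The means of Mir135a-1 and Mir135a-2 differed by less than the SD of Mir135a-2, so the means alone did not resolve their order. Their intervals were apart in replicate 1 and overlapped in replicate 2. Mir135a-1 exceeded Mir135a-2 1.20-fold in replicate 1 and 1.05-fold in replicate 2, a mean log2 ratio of 0.16 ± 0.14 (SD, n = 2).

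**Figure D1:**
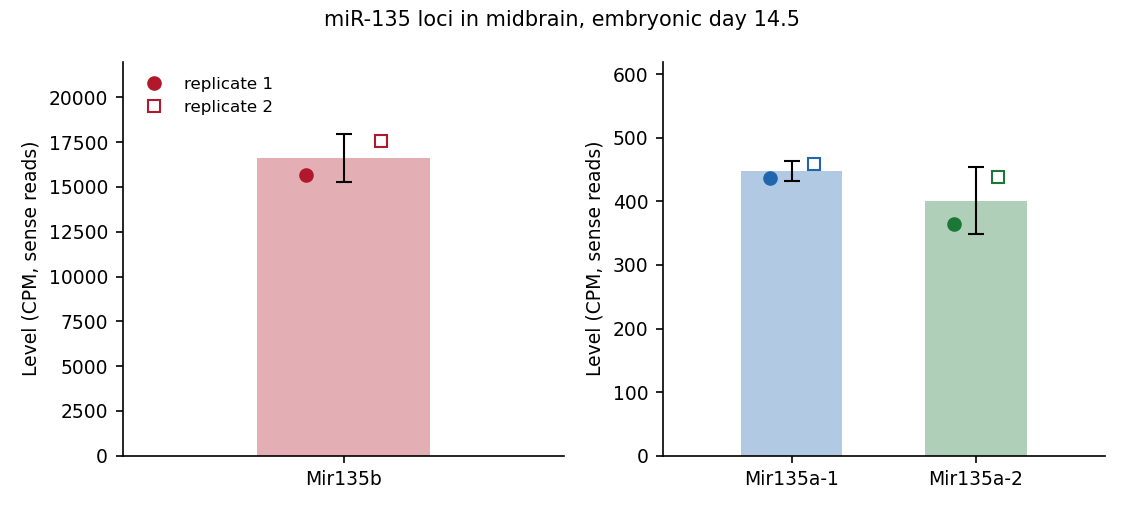
Level of each miR-135 locus in CPM of sense reads on linear axes from 0, with Mir135b in the left panel and Mir135a-1 and Mir135a-2 in the right panel on a smaller scale. Bars are means and error bars SDs over 2 replicates, filled circles are replicate 1 and open squares replicate 2; Mir135b lies near 16627 CPM and the other members near 448 and 401 CPM.

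Mir135b supplied 95.1% of the counted reads of the family in each library, with exact Clopper-Pearson 95% intervals of 95.02 to 95.26 in replicate 1 and 94.98 to 95.30 in replicate 2. The log2 ratio of Mir135b over Mir135a-1 was 5.17 in replicate 1 and 5.26 in replicate 2, with a mean of 5.21 ± 0.06 (SD, n = 2), or 37.1-fold. The log2 ratio of Mir135b over Mir135a-2 was 5.43 in replicate 1 and 5.33 in replicate 2, with a mean of 5.38 ± 0.07 (SD, n = 2), or 41.5-fold. These differences are many times the spread between replicates. They compare counted reads and not mature RNAs: a read that fits Mir135a-1 and Mir135a-2 equally would be in neither count, and the class of reads with several places, 36.2% of all reads in replicate 1 and 36.9% in replicate 2, is not broken down by miRNA in the tables. That class held 1105 reads in replicate 1 and 992 in replicate 2 for each read counted at Mir135a-1 and Mir135a-2 together. How many of them were miR-135a was not tested, so the tables do not bound the ratio of the mature RNAs. The tables do not separate the arms of a hairpin either, so the part of each count that came from the 5p or the 3p RNA is not known.

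The whole family took 120344 sense reads in replicate 1 and 73277 in replicate 2, which is 1.65% and 1.85% of the reads at miRNA loci (mean 1.75% ± 0.141, SD, n = 2). All 3 members passed the minimum of 10 reads in both libraries, as 397 loci did, which are called detected here. Mir135b ranked in place 14 by mean CPM, in both libraries as well, and 96.5% of the detected loci were lower. Mir135a-1 ranked in place 133 and Mir135a-2 in place 143, above 66.5% and 64.0% of the detected loci, whose median was 120.01 CPM. Shared mature sequences also occur outside the family. Of the 359 detected loci found in the mature table, 46 have a mature sequence that another locus holds too. These 46 include Mir135a-1 and Mir135a-2.

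**Figure D2:**
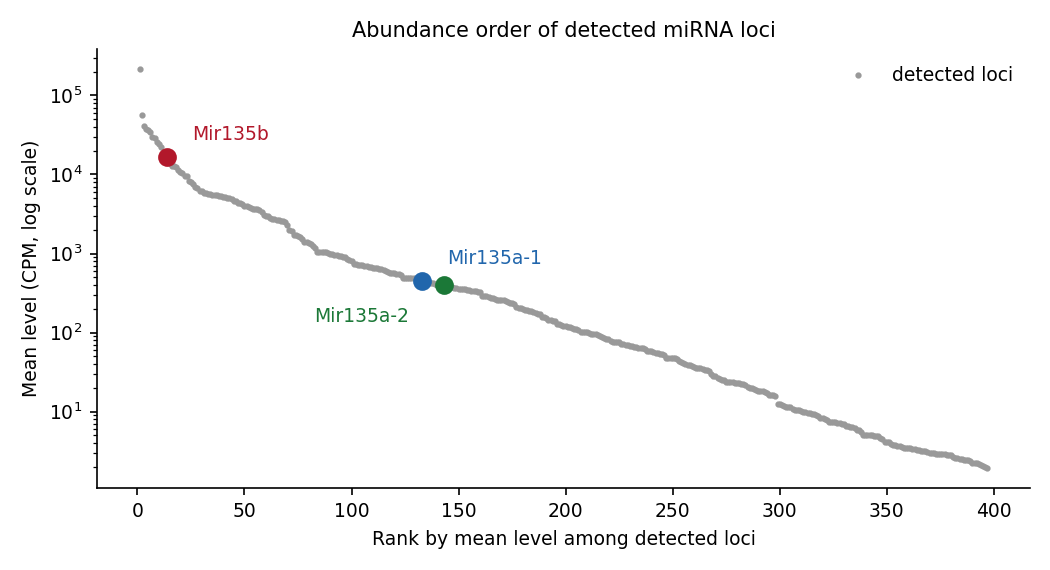
Mean level in CPM (log scale) against rank for the 397 detected miRNA loci, each point a locus. Mir135b is in place 14 on the steep upper part, and Mir135a-1 and Mir135a-2 lie in places 133 and 143 on the shallow middle part of the curve.

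The loci closest to each member in level over both libraries were found by their distance in log2(CPM + 1) among 396 detected loci. For Mir135b these were Mir181c at 17148 ± 755 CPM, Mir149 at 17513 ± 704 CPM and Mir26b at 14076 ± 515 CPM (SD, n = 2 each). Mir181c and Mir149, which ranked just above it, differed from Mir135b by less than its SD, whereas Mir26b, in the place below, was lower by more than that spread. For Mir135a-1 the closest were Mir302a, of a cluster known from pluripotent cells, at 438 ± 24.7 CPM, Mir138-2 at 485 ± 11.3 CPM and Mir384 at 484 ± 42.9 CPM. Of these, Mir138-2 differed from it by more than the larger SD of the pair, and the others did not. For Mir135a-2 they were Mir210, which is induced by low oxygen, at 399.5 ± 40.7 CPM, Mir148b at 389 ± 33.5 CPM and Mir328 at 400.2 ± 23.3 CPM, none of which differed from it beyond the spread. By means and SDs over the libraries, the place of Mir135b was not resolved against 3 detected loci. That of Mir135a-1 was not resolved against 18 and that of Mir135a-2 against 28. The 3 loci not resolved from Mir135b were Mir149, Mir181c and endothelial Mir126a, the last at 22524 ± 6382 CPM (SD, n = 2). Compared within each library, all 3 were above Mir135b in both. With 2 libraries this likeness is one of level and says nothing of a shared pattern across conditions.

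The neighbouring miRNA genes stood at other levels of counted reads than the members. Reads that fit both miR-135a loci would be in neither count, so the ratios below are not ratios of mature RNAs. Mirlet7g, of the let-7 family that rises with neural differentiation, is the next annotated miRNA after Mir135a-1 on chromosome 9, 24.6 kb away on the same strand, and had 55730 CPM in replicate 1 and 56496 CPM in replicate 2, 125-fold the mean of Mir135a-1. Mir1251, 65.0 kb from Mir135a-2 on chromosome 10, from 92137140 to 92137223, lies in the annotated span of Rmst too. It had 4427 reads in replicate 1 and 3224 in replicate 2, or 606 and 813 CPM, and its mean of 709 ± 146 CPM was 1.77-fold that of Mir135a-2. Both loci in the span of Rmst were thus higher in CPM in replicate 2, as were Mir135b, Mir135a-1 and Mirlet7g. That direction was common in CPM, with a median log2 ratio of replicate 1 over replicate 2 of -0.09 over the 397 detected loci. Of 14 annotated Rmst transcripts 2 span Mir135a-2, and 0 transcripts span Mir135a-2 and Mir1251 together. The annotated miRNA genes on either side of Mir135b are 699 and 725 kb away, and of these Gm24273 had no read while Gm44300 has no count here.

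All members were close to even between the libraries once these were scaled with TMM, the trimmed mean method of edgeR. The log2 ratio of replicate 1 over replicate 2 was -0.07 for Mir135b, 0.02 for Mir135a-1 and -0.17 for Mir135a-2, and 337, 378 and 251 of the 397 detected loci had a larger absolute ratio. A two-sided exact binomial test of the reads at each locus, adjusted over 397 loci by the Benjamini-Hochberg method, gave an adjusted p of 5.07e-23 for Mir135b, 0.711 for Mir135a-1 and 2.75e-04 for Mir135a-2. So 2 of the 3 members were called at an adjusted p under 0.05, both lower in replicate 1. The same test called 53.9% of all detected loci, 30.0% higher in replicate 1 and 23.9% higher in replicate 2, so that a call was ordinary here. With plain totals in place of TMM, 90 loci were higher and 127 lower in replicate 1, against 119 and 95 with TMM, and the ratio of Mir135a-1 changed sign to -0.073. The binomial spread leaves out all variation other than sampling, and no condition is compared here.

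**Figure D3:**
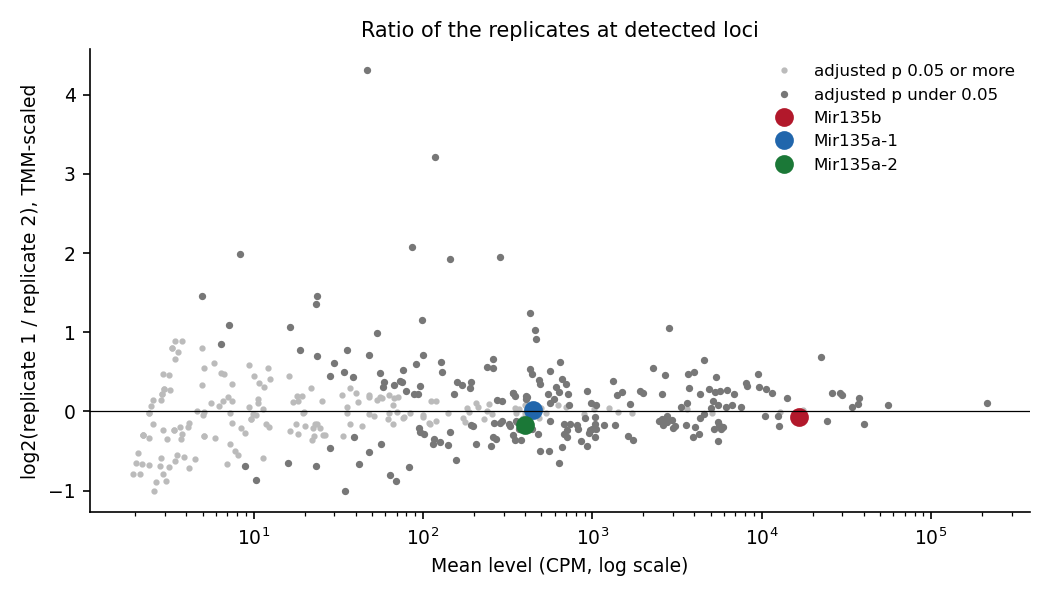
Log2 ratio of replicate 1 over replicate 2 after TMM scaling against mean CPM (log scale) for the 397 detected loci, with dark points for an exact binomial adjusted p under 0.05 and light points for the rest. Mir135b, Mir135a-1 and Mir135a-2 (coloured) lie at -0.07, 0.02 and -0.17, close to the line of no difference.

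Markers of the tissue and of other cells bear on what the libraries contain. Of 9 neural miRNA loci 7 were detected, with summed levels of 19053 CPM in replicate 1 and 23072 CPM in replicate 2, led by Mir137 and Mir153; Mir9-2 and Mir124a-3 were under the minimum. Of the 9 neural loci 7, all but Mir137 and Mir153, share at least 20 nt with another hairpin, as do Mir196a-1 and Mir133a-1 below, so their low counts do not show that the miRNA was scarce. miRNAs of the HOX clusters, which are active behind the midbrain, summed to 970.2 and 1351 CPM with 3 of 5 detected, and Mir196a-1 had no read. Mir10a had 661 ± 172 CPM and Mir10b 475 ± 88.1 CPM (SD, n = 2). By counted reads both means were above those of Mir135a-1 and Mir135a-2, that of Mir10b by less than its SD. Muscle loci summed to 23.0 and 30.0 CPM with 1 of 3 detected and Mir133a-1 at 0 reads, and the liver miRNA Mir122 had 14.1 and 10.3 CPM. Vessel and blood miRNAs differed between the libraries far more than the members did, with log2 ratios of replicate 1 over replicate 2 of 0.68 for endothelial Mir126a, 1.95 for red cell Mir451a and 3.21 for myeloid Mir223. The mesenchymal Mir214 (1.92), Mir143 of smooth muscle (0.65) and Mir204 of choroid plexus (0.34) leaned the same way. Of the 7 neural loci tested 4 were called higher in replicate 2 and 0 higher in replicate 1 (23.9% and 30.0% of all loci), the direction of Mir135b and Mir135a-2. All 3 HOX-cluster loci tested were called higher in replicate 2 as well, with a median log2 ratio of replicate 1 over replicate 2 of -0.44, against -0.15 for the neural loci. The part of tissue makeup in the ratios of the members was not tested.

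By counted reads, Mir135b exceeded every locus of a list of miRNAs studied in midbrain dopamine neurons. Of the 16 loci on that list 14 were detected, 0 stood above Mir135b, 7 stood above Mir135a-1 and 9 below Mir135a-2. The highest was Mir181a-1 at 6180 ± 130 CPM (SD, n = 2), followed by Mir125b-1 at 3321 ± 72.4 CPM. Mir125b-2, the other source of miR-125b, which rises as neurons differentiate, had 2759 ± 210.2 CPM. Mir7b, of the miR-7 family that represses α-synuclein, had 1354 ± 174 CPM and activity-regulated Mir132 had 812 ± 104 CPM. Closest to the miR-135a loci were Mir34c at 607 ± 65.1 CPM above them, and Mir7-2 at 350.0 ± 9.49 CPM and Mir181a-2 at 340 ± 23.0 CPM below them. Mir218-2 had 69.1 ± 31.7 CPM, Mir124a-2 11.3 ± 0.357 CPM and Mir133b 0.778 ± 0.326 CPM, from 4 reads in each library. Of the 16 loci 12 share at least 20 nt with another miRNA hairpin, as Mir135a-1 and Mir135a-2 do, whereas Mir135b does not. Both the order within the list and its place below Mir135b therefore hold for reads counted at single loci, not for the miRNAs. Between the libraries 5 of the 14 tested loci were called higher in replicate 1 and 4 higher in replicate 2, against 30.0% and 23.9% of all loci, with a median log2 ratio of 0.05 against 0.00 over all detected loci.

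**Figure D4:**
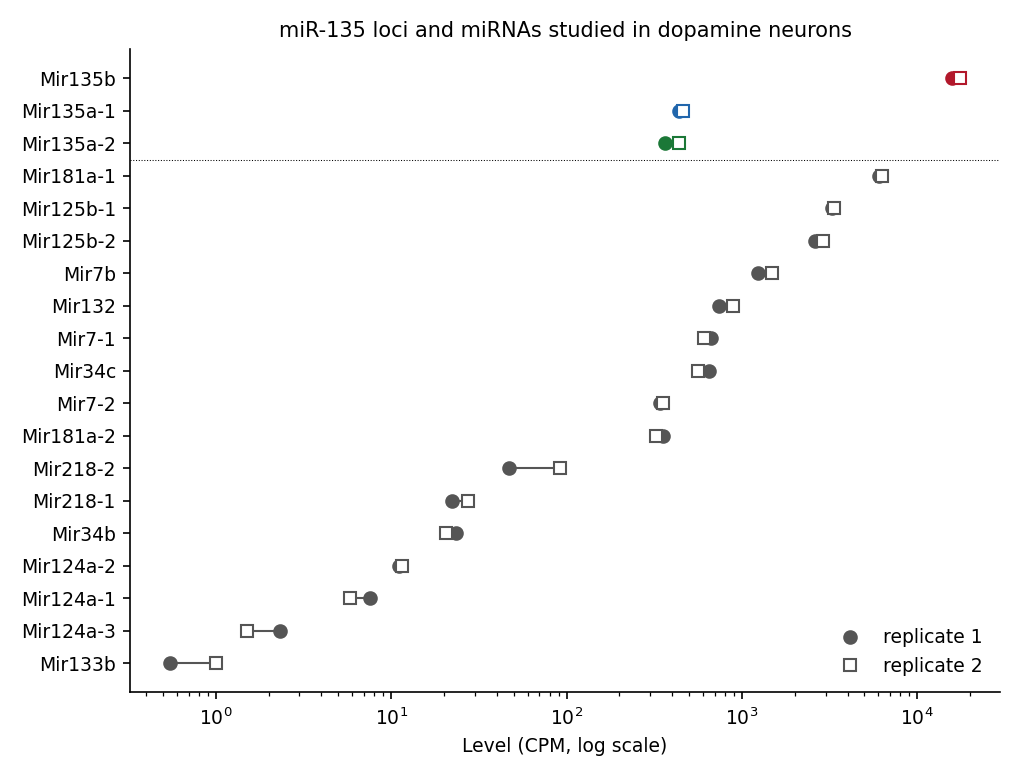
Level in CPM (log scale) of the 3 miR-135 loci, above the dotted line, and of 16 miRNA loci studied in midbrain dopamine neurons, with filled circles for replicate 1 and open squares for replicate 2. Mir135b lies to the right of every listed locus, and Mir135a-1 and Mir135a-2 lie between Mir34c and Mir7-2.

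The letters that pair with the seed of miR-135a-5p were looked up in annotated 3′ UTRs, since the family is linked to Lmx1b and Wnt signalling; no messenger RNA was measured, and a match is a description of the sequence alone. A full match of 8 letters is AAGCCATA on the transcript strand, the reverse complement of bases 2 to 8 followed by A. It occurs in 626 of 21006 protein-coding genes (2.98%), each taken with its longest 3′ UTR. The match of 7 letters to bases 2 to 8, AAGCCAT, occurs in 13.0%, the match of bases 2 to 7 followed by A, AGCCATA, in 8.52%, and the 6 letters of bases 2 to 7, AGCCAT, in 33.7%. The shorter matches are contained in the longer ones, so these counts overlap.

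Among 9 genes of midbrain patterning (Lmx1a, Lmx1b, Foxa2, Otx2, En1, En2, Msx1, Wnt1 and Wnt5a) 0 held the match of 8 letters. The 3′ UTR of Lmx1b, 3671 nt long, holds 1 match of bases 2 to 7 followed by A, on chromosome 2 from 33564523 to 33564529, minus strand. Of the 881 genes whose 3′ UTR is within 10% of that length, 19.5% hold that match. The 3′ UTR of Wnt1, 933 nt long, holds 1 match of bases 2 to 7, on chromosome 15 from 98793463 to 98793468, plus strand, and 27.7% of 3′ UTRs of similar length do. Whether these letters act as sites, or have a part in the link of the family to these genes, was not tested. The 30 bases that end at each match are shown with the match in capitals.
Lmx1b: ccacccgctcagactcttcagacAGCCATA
Wnt1: acattctccttgtctctgcctcggAGCCAT
Wnt5a, a noncanonical Wnt ligand, was the single gene of this list with the match to bases 2 to 8, in a long 3′ UTR of 4508 nt.

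Among 15 genes of canonical Wnt signalling 2 held the match of 8 letters, and 4, these 2 included, the match to bases 2 to 8. The median 3′ UTR was 2239 nt in this list and 960.5 nt over all genes. The 13.0% of all genes with the match to bases 2 to 8 is therefore no measure for these 4. A share at similar length was not computed for that match. The match of 8 letters lies in Gsk3b, the kinase that marks β-catenin for degradation, on chromosome 16 from 38243460 to 38243467, plus strand. It also lies in Dvl2, a Dishevelled protein that relays the signal from Frizzled receptors, on chromosome 11 from 70012145 to 70012152, plus strand. Of 3′ UTRs within 10% of their lengths, 11.3% for Gsk3b and 5.24% for Dvl2 hold the same match.
Gsk3b: aaaaatgtagacgagctttttaAAGCCATA
Dvl2: tagtctgacccaactgtgaagaAAGCCATA
The receptor gene Fzd3 and the transcription factor gene Tcf7l2 hold the match to bases 2 to 8 without the final A. The co-receptor gene Lrp6 and the Dishevelled gene Dvl1 hold that of bases 2 to 7 followed by A. Of 3′ UTRs of similar length, 24.3% for Lrp6 and 5.63% for Dvl1 hold it. Over both lists 2 of 24 genes hold the match of 8 letters, where an average of 4.70% of 3′ UTRs of similar length do. Lmx1a and Axin1, as well as Ccnd1, which encodes cyclin D1, hold the 6 letters of bases 2 to 7 alone. These letters, longer matches included, are in 51.4% of 3′ UTRs of similar length for Lmx1a, 22.4% for Axin1 and 60.4% for Ccnd1. The other 12 genes, Ctnnb1 (β-catenin) and Lef1 among them, hold none of these matches in their longest 3′ UTR, which says only that these letters are not in that window.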

How the data were processed

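The authors deposited 1 table of raw read counts per library, with counts for both strands, the annotated strand and the opposite strand of each miRNA gene, on assembly mm10 with annotation M4, as the deposited text states. The sources used here do not give the aligner or its settings. The 4 classes of reads outside genes, of which the multiply mapped reads are given with the results, were left out of library sizes. Sense counts of the loci were scaled to CPM by their sum. Names and positions came from GENCODE M21 by gene identifier (1894 of 1973 loci matched), and all 3 members matched RefSeq hairpins (GRCm38.p6). Replicates were taken from the labels. Reads at each detected locus were compared by exact binomial test against TMM-scaled totals (edgeR 4.0.16, scipy 1.17.1) after a check on simulated counts. The simulated counts held sampling variation only, as the test assumes, so the check shows that the code runs as meant. It does not cover further spread between real libraries. Folding used RNAfold 2.7.2. 3′ UTR matches were counted in GENCODE M21 transcripts. Loci named are the members, the 3 nearest in level to each, the adjacent miRNA genes, and the lists. The family and the lists were chosen with earlier results of these data known, and the members of the family by symbol. Alternatives changed strand, scaling (DESeq2 1.42.0 size factors among them), totals, filters, test, replicates and match length.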

Additional observations from a re-analysis of the deposited data

How the results depend on the processing

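Of 82 alternative values 61 kept their direction and stayed within the replicate spread, on their side of the threshold or within 1.5 times the main count. Some of these could not move. For levels, the Mir135b share and ratios between members, leaving out 1 of 2 replicates always stays within the SD. The share and the ratios between members are the same with both strands, because the members have no reads on the opposite strand. Scaling to all reads gave 6851 CPM for Mir135b, 184 CPM for Mir135a-1 and 165 CPM for Mir135a-2, and leaving the most abundant locus out of the total gave 21161, 569.8 and 511 CPM; both change the denominator. Per nt of hairpin, the log2 ratio was 5.11 for Mir135b over Mir135a-1 and 0.32 for Mir135a-1 over Mir135a-2. Without loci that share hairpin sequence the ranks were 13 for Mir135b, 103 for Mir135a-1 and 110.0 for Mir135a-2, and with loci of 1 miRNA summed miR-135a ranked in place 100; both settings rank fewer loci, and the sum adds the reads of both miR-135a loci. Leaving out 1 replicate gave Mir135a-2 a rank of 133 to 147. With plain totals the log2 ratio of replicate 1 over replicate 2 of Mir135a-1 turned to -0.073 (exact binomial test, adjusted p = 0.138), near 0 either way, and the split of all calls moved as given above, with the median log2 ratio at -0.09. With edgeR's exactTest 5 loci were called, and Mir135b (-0.070) and Mir135a-2 (-0.17) were not among them. Its dispersion came from the same 2 libraries taken as 1 group, so ratios as small as these had little chance of a call. The match to bases 2 to 8 was in 5 genes of the 3′ UTR lists, and bases 2 to 7 with A in 5. The 6 letters of bases 2 to 7, longer matches included, were in 12 genes. The match of bases 2 to 7 with A and the 6 letters were added after the data were seen. With 1 group, no paired analysis was possible because there is no other group to pair with.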
